A study of Mus musculus with 6 samples.

Results

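The 44 genes described here build the cytoskeleton and the vesicle release machinery of newborn neurons, or switch on as progenitors leave the cell cycle. They were taken as all probe sets annotated to exactly 1 gene symbol on a list of 44 neuronal genes. All 44 genes were found, with 113 probe sets of the 45037 tested and 44 of 18193 named genes. Gene expression was measured in C57BL/6 mouse embryos of mixed sex at embryonic day 10.5, in midbrain floor plate (3 samples) and in the neighbouring ventral lateral midbrain (3 samples), each sample pooling tissue of 6 embryos. No transgene, mutation or treatment is given in the labels, which do not say whether pools of the 2 regions shared embryos, so the p-values cover the spread among these 6 samples and no more. From 5 ng of total RNA per sample, amplified copies were hybridised to an Affymetrix array. The deposited value of a probe set is a log ratio to the median of that probe set across all arrays. It is read here as log2 with more RNA giving a higher value, although base and direction are not stated. Such values show how samples differ, not how strongly a gene is expressed, and with 6 arrays the 2 middle values of a probe set are always equal and opposite.

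When a neural progenitor leaves the ventricular zone, it first expresses transient transcription factors such as Nhlh1 and the Ebf proteins. It then assembles a neuronal cytoskeleton of class III beta-tubulin, doublecortin, stathmins, microtubule-associated proteins and neurofilaments, and grows an axon led by a growth cone. The SNARE proteins, synaptotagmins and complexins of vesicle release appear early too, well before mature synapses. The floor plate of the midbrain is a strip of ventral midline cells that later yields dopaminergic neurons, and the tissue beside it gives rise to GABAergic, red nucleus and oculomotor neurons.

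Markers of each region describe the dissection, but were chosen with earlier results of these data known and are no independent check. Of 10 floor plate genes 9 were higher in floor plate and none lower, where 4.58% of all genes were higher. Among them was Foxa2 (log2 difference 1.76, SE 0.28, adjusted p = 0.0132), which missed the threshold without floor plate replicate 1 (0.0575). Of 8 genes of GABAergic neurons all 8 were lower, where 3.25% of all genes were. Gad1 was at -2.59, -2.03 and -2.59 in floor plate, against 2.38, 2.03 and 2.05 in ventral lateral samples. The array medians over all probe sets lay between -0.0030 and 0.0045. As the deposited values had already been processed, these medians cannot show whether an array was shifted before that. With 3 arrays a region, differences had a median SE of 0.127 over all probe sets and 0.147 over the 113 of the neuronal genes. Both the spread among arrays and their number set this precision.

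To show regulatory sequence of genes that differed and of genes that went the other way, 5 promoters are given, each from 250 bases before to 50 after the RefSeq start on the gene's own strand (GRCm38.p6). Ina, Syn1 and Cplx1 had a probe set that was lower in floor plate. Cplx2, the paralogue of Cplx1, and the early factor gene Nhlh1 had positive differences that missed the threshold. Capitals mark matches to 4 motifs searched on both strands, which did not overlap in these promoters: CAGCTG, an E-box bound by Nhlh factors, CAGATG, an E-box bound by proneural factors, the Ebf core CCCNNGGG, and TTCAGCACC, one part of the RE1 element bound by the repressor REST.
Ina, chr19:47014431-47014730, plus strand: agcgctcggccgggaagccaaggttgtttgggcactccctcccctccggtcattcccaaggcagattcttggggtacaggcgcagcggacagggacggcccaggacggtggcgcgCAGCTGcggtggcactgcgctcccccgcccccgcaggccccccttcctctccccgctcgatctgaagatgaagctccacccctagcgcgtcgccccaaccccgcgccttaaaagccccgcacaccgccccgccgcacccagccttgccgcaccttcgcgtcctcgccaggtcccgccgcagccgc
Syn1, chrX:20920869-20921168, minus strand: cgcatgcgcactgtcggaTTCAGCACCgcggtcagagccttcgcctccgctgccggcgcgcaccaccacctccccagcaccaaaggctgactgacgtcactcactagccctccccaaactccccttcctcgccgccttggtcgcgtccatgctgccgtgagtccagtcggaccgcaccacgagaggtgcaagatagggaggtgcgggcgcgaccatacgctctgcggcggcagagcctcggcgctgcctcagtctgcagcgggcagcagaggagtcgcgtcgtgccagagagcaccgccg
Cplx1, chr5:108549978-108550277, minus strand: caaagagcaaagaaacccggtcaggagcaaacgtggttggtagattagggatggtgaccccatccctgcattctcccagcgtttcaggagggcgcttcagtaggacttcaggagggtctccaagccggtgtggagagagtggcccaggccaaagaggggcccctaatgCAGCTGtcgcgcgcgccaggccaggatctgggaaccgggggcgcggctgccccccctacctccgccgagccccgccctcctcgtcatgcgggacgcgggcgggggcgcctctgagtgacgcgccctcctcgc
Cplx2, chr13:54302306-54302605, plus strand: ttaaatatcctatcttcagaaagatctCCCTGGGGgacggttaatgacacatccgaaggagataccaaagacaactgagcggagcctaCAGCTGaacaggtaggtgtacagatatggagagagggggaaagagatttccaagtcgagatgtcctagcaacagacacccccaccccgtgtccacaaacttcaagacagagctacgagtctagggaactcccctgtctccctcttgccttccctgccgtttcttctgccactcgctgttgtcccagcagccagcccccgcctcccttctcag
Nhlh1, chr1:172057547-172057846, minus strand: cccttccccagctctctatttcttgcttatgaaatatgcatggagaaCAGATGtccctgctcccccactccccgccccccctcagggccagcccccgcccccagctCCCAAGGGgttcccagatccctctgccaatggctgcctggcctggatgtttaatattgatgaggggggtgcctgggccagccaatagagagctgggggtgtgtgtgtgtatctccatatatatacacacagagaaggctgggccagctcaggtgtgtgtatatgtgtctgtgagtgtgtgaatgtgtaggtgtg

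Of the 44 genes 28 were matched in the table of RefSeq promoters used here, with 44 promoters, which were set against all 32851 promoters of the same length in that table. CAGCTG was found in 10 of the 44 (22.7%, against 16.3% of all promoters), and CAGATG in 9 (20.5%, against 17.2%). The Ebf core was in 9 (20.5%, against 13.7%), and the RE1 part in 1 (2.27%, against 0.371%), which was that of Syn1. Both complexin promoters held a CAGCTG. The difference of Cplx1 that passed was negative, while those of Cplx2 were positive and did not pass. The motif counts are matches of letters and say nothing about binding.

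Many of the neuronal genes were lower in floor plate. Of the 113 probe sets 23 were lower in floor plate and 0 higher (limma, Benjamini-Hochberg adjusted p under 0.05 over all probe sets), which is 20.4%, against 2.01% of all probe sets called lower, 2.70% called higher and 4.71% called either way. At an unadjusted p under 0.05, 59 were lower and 4 higher, where 8.12% and 8.37% of all probe sets were. These 23 belonged to 16 of the 44 genes (36.4%, against 3.25% of all genes with a lower probe set, 4.58% with a higher one and 7.83% with either). The median difference was -0.38 over the 113 probe sets and -0.0040 over all probe sets. In bulk tissue, fewer neurons in a piece and less RNA per neuron cannot be told apart.

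Counts of negative differences and of groups apart include the 23 probe sets that passed, which were all negative with groups apart. Genes without a call were not counted separately. Of the 113 probe sets 90 had a negative difference (79.6%, against 50.8% of all), and for 54 all floor plate values lay below all ventral lateral values (47.8%, against 11.0% of all). For 5 the floor plate values were all above, where 11.5% of all probe sets were, and the groups overlapped for the other 54. A difference of -0.5 or less was found for 41 probe sets (36.3%, against 4% of all) and one of 0.5 or more for 1 (0.885%, against 4.01% of all). The differences that passed were 1.41-fold to 2.14-fold, and 6 of the 23 were at least 2-fold, whereas 408 of the 903 lower probe sets of the whole array were.

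**Figure D1:**
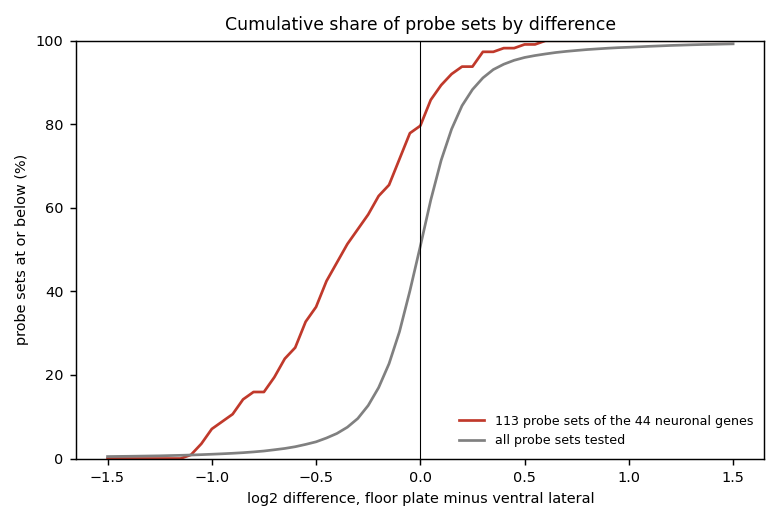
Cumulative share of probe sets (y axis, percent) at or below each log2 difference of floor plate minus ventral lateral samples (x axis), for the 113 probe sets of the neuronal genes (red) and all 45037 tested (grey). The red curve lies left of the grey one over most of its range: 36.3% of the neuronal probe sets are at -0.5 or less, against 4% of all.

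Single arrays mattered for the count of calls. Against 23 of the 113 with all arrays, 6 were lower without floor plate replicate 1 and 6 without floor plate replicate 3. The count was 10 with ventral lateral replicate 1 left out and 9 with ventral lateral replicate 2 left out. Leaving out floor plate replicate 2 gave 19, as did leaving out ventral lateral replicate 3, with 0 higher in each of these fits. The share of all probe sets called lower also fell, from 2.01% to between 1.13% and 1.65%. The number of negative differences stayed between 87 and 93 of 113, and the median difference between -0.43 and -0.28.

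The samples of each region were graded. The mean over the 113 probe sets was -0.20, -0.09 and -0.25 in floor plate replicates 1, 2 and 3, against 0.32, 0.17 and 0.04 in ventral lateral replicates 1, 2 and 3. The groups did not overlap, but floor plate replicate 2 and ventral lateral replicate 3 were the closest pair. Ventral lateral replicate 1 was the highest array for 68 of the 113 probe sets (60.2%, against 19.4% of all probe sets). Floor plate replicate 3 was the lowest for 47 (41.6%, against 19.4%) and floor plate replicate 1 for 37 (32.7%, against 18.7%). The mean of the GABAergic genes was graded differently within floor plate, at -1.56, -1.33 and -1.29, against 1.74, 1.08 and 1.43 in ventral lateral replicates 1, 2 and 3. Ventral lateral replicate 1 was thus the highest array for both lists, and the part of GABAergic neurons in the result was not tested.

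**Figure D2:**
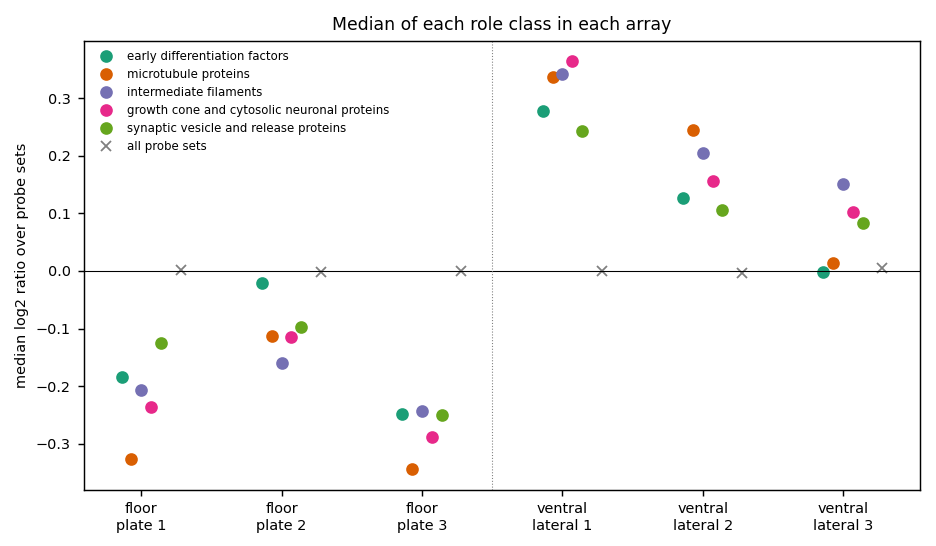
Median log2 ratio (y axis) of each of 5 role classes of the neuronal genes in each of the 6 arrays (x axis), with the median of all probe sets as crosses. All 5 classes are below 0 in the 3 floor plate arrays; in ventral lateral replicate 3 the early factors are at -0.0023 and the microtubule genes at 0.01, and the other classes are higher.

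Of the early differentiation factors, 3 of 22 probe sets were lower (all: 2.01%), from 2 of 8 genes (all: 3.25%), and 0 were higher. These 2 genes encode zinc finger factors of the Myt1 family. St18 was at -0.42, -0.36 and -0.26 in floor plate, against 0.86, 0.45 and 0.26 in ventral lateral samples (log2 difference -0.87, SE 0.16, adjusted p = 0.0217), and its other probe set differed by -0.69 (adjusted p = 0.103). All 3 floor plate values were below the ventral lateral ones, of which replicate 1 stood highest. Myt1l, whose product represses non-neuronal programmes, passed on 2 of its 5 probe sets. The first of these was at -0.32, -0.43 and -0.62 in floor plate, against 1.03, 0.32 and 0.36 in ventral lateral samples (log2 difference -1.02, SE 0.20, adjusted p = 0.0291). The most variable one was at -0.95, -0.18 and -0.96 in floor plate, against 0.18, 0.20 and 0.59 in ventral lateral samples, just short of the threshold (log2 difference -1.02, SE 0.23, adjusted p = 0.0504), and passed without floor plate replicate 2 (0.00918). The groups were apart on both. The other 3 probe sets of Myt1l differed by -0.55, which passed, -0.41 and 0.02. Myt1, the founding member of the family, did not pass, at -0.03, 0.16 and -0.26 in floor plate, against 0.28, 0.03 and -0.25 in ventral lateral samples (log2 difference -0.06, SE 0.17, adjusted p = 0.908), with its other probe set at 0.07.

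The Ebf and Nhlh genes, helix-loop-helix factors switched on in cells that have just left the cycle, did not pass. The most variable probe sets of Ebf1 and Ebf3 differed by -0.56 and -0.35 and that of Ebf2 by 0.14, with 95% intervals of -0.998 to -0.11, -0.90 to 0.19 and -0.39 to 0.67. Over all their probe sets, the differences ran from -0.56 to 0.04 for the 5 of Ebf1, from -0.48 to -0.35 for the 3 of Ebf3 and from -0.39 to 0.14 for the 3 of Ebf2, of which the other 2 were negative. The groups of Ebf2 were apart on its lowest probe set (adjusted p = 0.263) and overlapped on the other 2. Nhlh1 and Nhlh2, singled out after their values were seen, went the other way. Nhlh1 was at 0.37, 0.33 and 0.10 in floor plate, against -0.31, -0.10 and -0.55 in ventral lateral samples (log2 difference 0.59, SE 0.14, adjusted p = 0.0636). With p-values adjusted over genes, its only probe set passed as higher where the probe sets of each gene were averaged (0.0350). It missed the threshold where each gene was given by its most variable probe set (0.0529), and passed with the replicate number in the fit as a block (0.0448). Nhlh2 was at 0.01, 0.37 and 0.04 in floor plate, against -0.01, -0.04 and -0.43 in ventral lateral samples (log2 difference 0.30, SE 0.15, adjusted p = 0.4). The floor plate values of both genes lay above all ventral lateral values, with ventral lateral replicate 3 the lowest. In this class the calls depended on single arrays: St18 was lost without floor plate replicate 1 (adjusted p = 0.0875), 2 (0.0654) or 3 (0.0568) and without ventral lateral replicate 2 (0.0531). The 2 probe sets of Myt1l were each lost in 4 of the 6 fits, the first without floor plate replicate 1 (0.0781), 2 (0.0758) or 3 (0.0990) or ventral lateral replicate 3 (0.0524), the other without floor plate replicate 1 (0.0591) or 3 (0.0545) or ventral lateral replicate 2 (0.0581) or 3 (0.0664).

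Of the microtubule genes, 6 of 23 probe sets were lower (all: 2.01%), from 3 of 9 genes (all: 3.25%), and 0 were higher. Stmn3 and Stmn2 encode neuronal stathmins, which bind tubulin and regulate microtubule growth, and Mapt encodes tau. Stmn3 was at -0.72, -0.29 and -0.50 in floor plate, against 0.84, 0.52 and 0.29 in ventral lateral samples (log2 difference -1.05, SE 0.17, adjusted p = 0.0135). Its second probe set, which may read related transcripts, also passed (-0.50). Mapt was at -0.59, -0.22 and -0.95 in floor plate, against 0.62, 0.55 and 0.22 in ventral lateral samples (log2 difference -1.05, SE 0.20, adjusted p = 0.0254). Stmn2 was at -0.44, -0.12 and -0.48 in floor plate, against 0.52, 0.29 and 0.12 in ventral lateral samples (log2 difference -0.66, SE 0.15, adjusted p = 0.0493), with its other probe set at -0.51. In all 3 genes floor plate replicate 2 and ventral lateral replicate 3 were the nearest across the groups, as in the mean of all 113 probe sets. Of the 4 probe sets of Mapt 3 passed, with differences from -1.05 to -0.98, and the other was at -0.20 with overlapping groups.

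Of the 4 stathmin genes the other 2 did not pass. Stmn1, the stathmin that dividing cells express as well, was at -0.07, 0.13 and -0.03 in floor plate, against 0.29, 0.03 and -0.04 in ventral lateral samples (log2 difference -0.09, SE 0.12, adjusted p = 0.806), and its other probe set differed by 0.06. Its groups overlapped, and the 95% interval of the difference ran from -0.37 to 0.19. Stmn4 differed by -0.49 without passing (adjusted p = 0.181). Whether the stathmins differ from each other was not tested.

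Markers often used to count newborn neurons did not pass either. Tubb3, the class III beta-tubulin, was at -0.34, -0.06 and -0.21 in floor plate, against 0.42, 0.25 and 0.06 in ventral lateral samples (log2 difference -0.44, SE 0.13, adjusted p = 0.122). Dcx, which encodes doublecortin, was at -0.48, -0.22 and -0.12 in floor plate, against 0.75, 0.44 and 0.12 in ventral lateral samples (log2 difference -0.72, SE 0.18, adjusted p = 0.0693), with its other 3 probe sets between -0.59 and -0.27. The groups were apart in both. Map2 and Map1b, which encode dendritic and axonal microtubule-associated proteins, differed by -0.46 and -0.16 on their most variable probe sets, and the other probe sets of Map2 reached 0.19 and of Map1b 0.04. Without single arrays, Stmn2 passed only without floor plate replicate 2 (adjusted p = 0.0391, and 0.0623 to 0.153 in the other 5 fits), and missed the threshold after array centring (0.0508), with robust eBayes (0.0534) and with array weights (0.0609). Dcx passed without ventral lateral replicate 3 (0.0420). Stmn3 was lost without floor plate replicate 1 (0.0569) and its second probe set in every fit but that without floor plate replicate 2 (0.0457), while 1 probe set of Mapt was lost only without ventral lateral replicate 1 (0.0563) and the other 2 in every fit but 2, those leaving out floor plate replicate 2 and ventral lateral replicate 3.

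**Figure D3:**
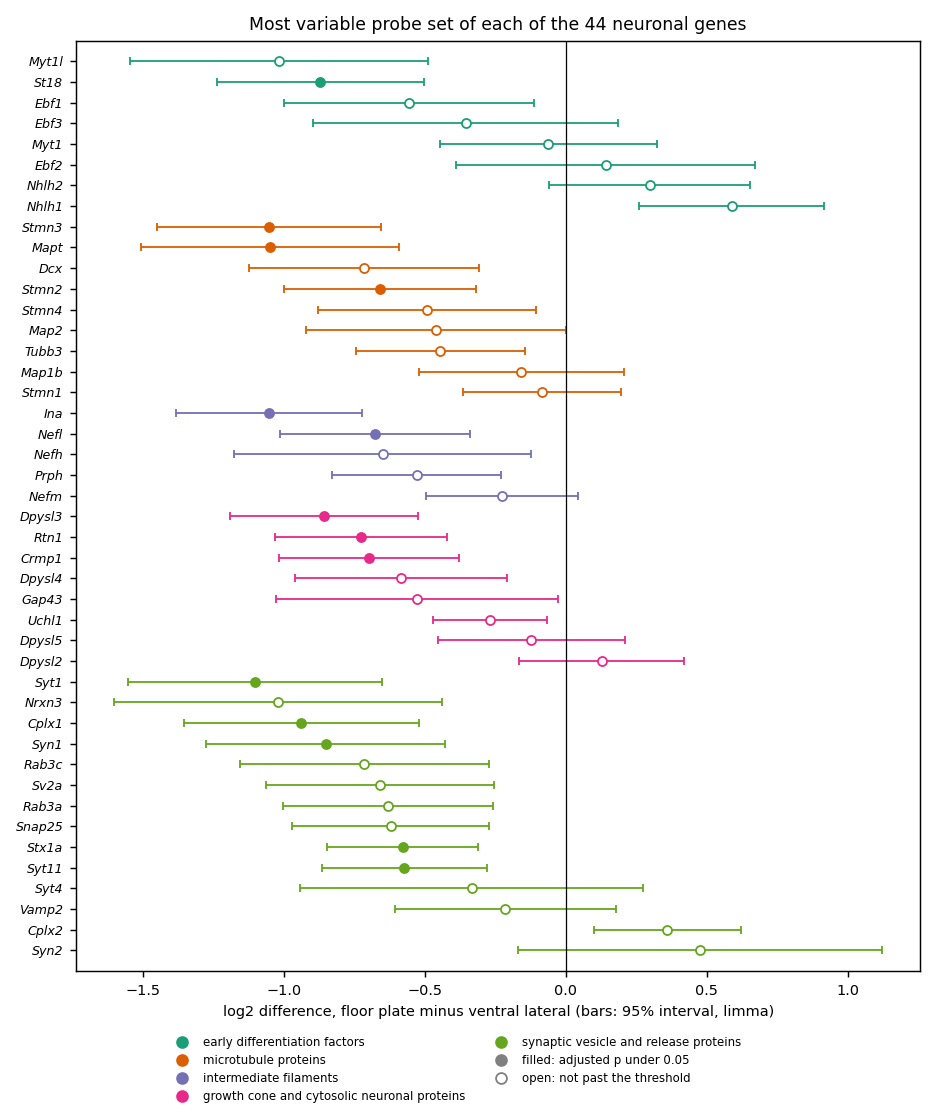
Log2 difference of floor plate minus ventral lateral samples (x axis) for the most variable probe set of each of the 44 genes (y axis), with 95% intervals from limma, coloured by role class and filled where the adjusted p is under 0.05. All 14 filled points lie left of 0, and 6 genes lie right of 0: Nhlh1, Nhlh2, Ebf2, Dpysl2, Cplx2 and Syn2.

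Of the intermediate filament genes, 3 of 11 probe sets were lower (all: 2.01%), from 2 of 5 genes (all: 3.25%), and 0 were higher. Ina, which encodes alpha-internexin, a filament protein of young neurons, was at -0.37, -0.41 and -0.56 in floor plate, against 0.88, 0.57 and 0.37 in ventral lateral samples (log2 difference -1.05, SE 0.14, adjusted p = 0.00606). Floor plate averaged -0.45 ± 0.10, against 0.61 ± 0.25 for ventral lateral tissue (mean ± SD, n = 3 each). A second probe set of Ina also passed (-0.91), and the other was at -0.38 (adjusted p = 0.0626) with groups apart. Nefl, the light neurofilament, was at -0.50, -0.25 and -0.15 in floor plate, against 0.58, 0.39 and 0.15 in ventral lateral samples (log2 difference -0.68, SE 0.14, adjusted p = 0.0424), and its other probe set differed by -0.46. Ventral lateral replicate 1 was again the highest array for both genes.

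The other filament genes did not pass. Nefm, the medium neurofilament, was at -0.07, -0.13 and 0.01 in floor plate, against 0.34, 0.15 and -0.01 in ventral lateral samples (log2 difference -0.22, SE 0.12, adjusted p = 0.403), with overlapping groups and a 95% interval of -0.49 to 0.05. Nefh differed by -0.65 with overlapping groups. Prph, which encodes peripherin of peripheral and motor neurons, differed by -0.53 on 1 probe set (adjusted p = 0.0676) and by -0.29 to 0.11 on its other 3. The 2 Ina calls held in the fits without any 1 array (adjusted p of 0.00871 to 0.0393). Nefl passed only without ventral lateral replicate 3 (0.0417, and 0.0673 to 0.132 in the other 5 fits), and Prph did without floor plate replicate 1 (0.0447).

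Of the genes of growth cone and cytosolic neuronal proteins, 4 of 14 probe sets were lower (all: 2.01%). They came from 3 of 8 genes (all: 3.25%), and 0 were higher. Dpysl3 and Crmp1 belong to the collapsin response mediator family, which links guidance signals to microtubules. Dpysl3 was at -0.55, -0.24 and -0.40 in floor plate, against 0.70, 0.44 and 0.24 in ventral lateral samples (log2 difference -0.86, SE 0.14, adjusted p = 0.0154). Crmp1 was at -0.49, -0.17 and -0.40 in floor plate, against 0.56, 0.30 and 0.17 in ventral lateral samples (log2 difference -0.70, SE 0.14, adjusted p = 0.0301). Rtn1, a reticulon of the neuronal endoplasmic reticulum, was at -0.48, -0.17 and -0.41 in floor plate, against 0.47, 0.48 and 0.17 in ventral lateral samples (log2 difference -0.73, SE 0.13, adjusted p = 0.0215). The groups were apart in all 3 genes, with floor plate replicate 2 nearest to ventral lateral replicate 3. A second Dpysl3 probe set, which may read related transcripts, passed (-0.74), and the third was at -0.22.

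The other members of the collapsin response mediator family on the list did not pass. Dpysl4 differed by -0.58, -0.51 and -0.33 on its 3 probe sets, with groups apart on each, and none passed (lowest adjusted p = 0.0608), although their mean did in a fit over genes (0.0446). Dpysl5 was at 0.04, -0.33 and -0.04 in floor plate, against 0.14, -0.21 and 0.10 in ventral lateral samples (log2 difference -0.12, SE 0.14, adjusted p = 0.757), with its other probe set at -0.14. Dpysl2, which encodes the most widely expressed protein of the family, differed by 0.13 and -0.10 on its 2 probe sets, with a 95% interval of -0.16 to 0.42 on the first. Gap43, a growth cone protein, differed by -0.53 (adjusted p = 0.274) with overlapping groups, as floor plate replicate 2 was at 0.09 and ventral lateral replicate 3 at -0.09. Uchl1, a neuronal ubiquitin hydrolase, differed by -0.27 with groups apart (adjusted p = 0.161). Dpysl3 was lost without floor plate replicate 1 (0.0633) or 3 (0.0548). Its second probe set, Crmp1 and Rtn1 passed only where floor plate replicate 2 or ventral lateral replicate 3 was left out, with adjusted p of 0.0511 to 0.106 in the other fits.

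Of the vesicle and release genes, 7 of 43 probe sets were lower (all: 2.01%), from 6 of 14 genes (all: 3.25%), and 0 were higher. The calcium sensor of fast release, Syt1, had the lowest difference of all 113 probe sets, at -0.37, -0.33 and -0.84 in floor plate, against 0.92, 0.52 and 0.33 in ventral lateral samples (log2 difference -1.10, SE 0.19, adjusted p = 0.0193). Its other 3 probe sets differed by -0.85, -0.32 and 0.09. Nrxn3, a presynaptic adhesion protein, had the smallest adjusted p, at -0.72, -0.41 and -0.72 in floor plate, against 0.55, 0.41 and 0.48 in ventral lateral samples (log2 difference -1.10, SE 0.12, adjusted p = 0.00229). A second probe set of Nrxn3 passed (-0.89), and its most variable one did not (-1.02, adjusted p = 0.0689), though it did without ventral lateral replicate 2 (0.0460). Its other 2 probe sets differed by -0.38 and -0.25. The groups were apart on the probe sets that passed.

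The other 4 that passed act at several steps of release. Cplx1, a complexin that clamps SNARE complexes, was at -0.29, -0.41 and -0.35 in floor plate, against 1.004, 0.46 and 0.29 in ventral lateral samples (log2 difference -0.94, SE 0.18, adjusted p = 0.0273), with its other probe sets at -0.84 and 0.03. Syn1, a synapsin that tethers vesicles to actin, was at -0.22, -0.47 and -0.93 in floor plate, against 0.47, 0.22 and 0.23 in ventral lateral samples (log2 difference -0.85, SE 0.18, adjusted p = 0.043). Stx1a, a SNARE of the plasma membrane, was at -0.32, -0.19 and -0.55 in floor plate, against 0.23, 0.25 and 0.19 in ventral lateral samples (log2 difference -0.58, SE 0.12, adjusted p = 0.0318), on a probe set that may read related transcripts, and its other one differed by -0.47. Syt11, a synaptotagmin that does not bind calcium, was at -0.49, -0.13 and -0.30 in floor plate, against 0.41, 0.25 and 0.13 in ventral lateral samples (log2 difference -0.57, SE 0.13, adjusted p = 0.0479), and its other 4 probe sets were between -0.43 and -0.12. Floor plate replicate 2 was the highest floor plate array for Syt11, Stx1a and Syt1, while for Cplx1 it was the lowest.

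The other 8 genes of this class did not pass. Snap25, the SNARE partner of Stx1a, and Sv2a, a vesicle glycoprotein, differed by -0.62 (adjusted p = 0.0661) and -0.66 (0.0879). The vesicle GTPases Rab3a and Rab3c differed by -0.63 (0.0771) and -0.71 (0.0915), with groups apart in all 4 on these most variable probe sets. The other probe sets had overlapping groups, at -0.32 for Snap25, -0.25 for Rab3a and between -0.12 and 0.06 for the 4 of Rab3c. Without floor plate replicate 2, Snap25 (0.0363) and Rab3c (0.0152) passed, and Sv2a did without ventral lateral replicate 3 (0.0375). Vamp2, the vesicle SNARE, was at -0.41, 0.05 and -0.05 in floor plate, against 0.33, 0.06 and -0.16 in ventral lateral samples (log2 difference -0.21, SE 0.17, adjusted p = 0.618), with its other probe set at -0.21. Syt4 differed by -0.33 and 0.0018 on its 2 probe sets, with floor plate replicate 2 at 0.31 on both. The second synapsin, Syn2, differed by 0.48 on its most variable probe set, where floor plate replicate 1 was at 1.11 against -0.03 and 0.09 in replicates 2 and 3, and by -0.07 to 0.28 on the other 5.

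Cplx2 contrasted with Cplx1 and was singled out after its values were seen. It was at 0.22, 0.05 and 0.17 in floor plate, against -0.26, -0.05 and -0.34 in ventral lateral samples (log2 difference 0.36, SE 0.11, adjusted p = 0.145), and its other 2 probe sets differed by 0.29 and 0.28. The floor plate values were above all ventral lateral values on 2 of the 3 probe sets. None passed, and the difference between the paralogues was not tested. Without single arrays, the first Nrxn3 probe set passed in all 6 fits (adjusted p of 0.00313 to 0.0146), its second only with floor plate replicate 3 (0.0130) or ventral lateral replicate 1 (0.0279) left out, and Syt1 was lost without floor plate replicate 1 (0.0582) or 3 (0.0510) or ventral lateral replicate 1 (0.0538). Cplx1 passed only without ventral lateral replicate 1 (0.0248) or 3 (0.0262), Syn1 only without floor plate replicate 1 (0.0363), Stx1a only without floor plate replicate 2 (0.0347) and Syt11 in none (0.0504 to 0.155). Syt11 also missed the threshold with robust eBayes (0.0516) and array weights (0.0545), and Syt1 on the mean of its probe sets (0.0735).

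**Figure D4:**
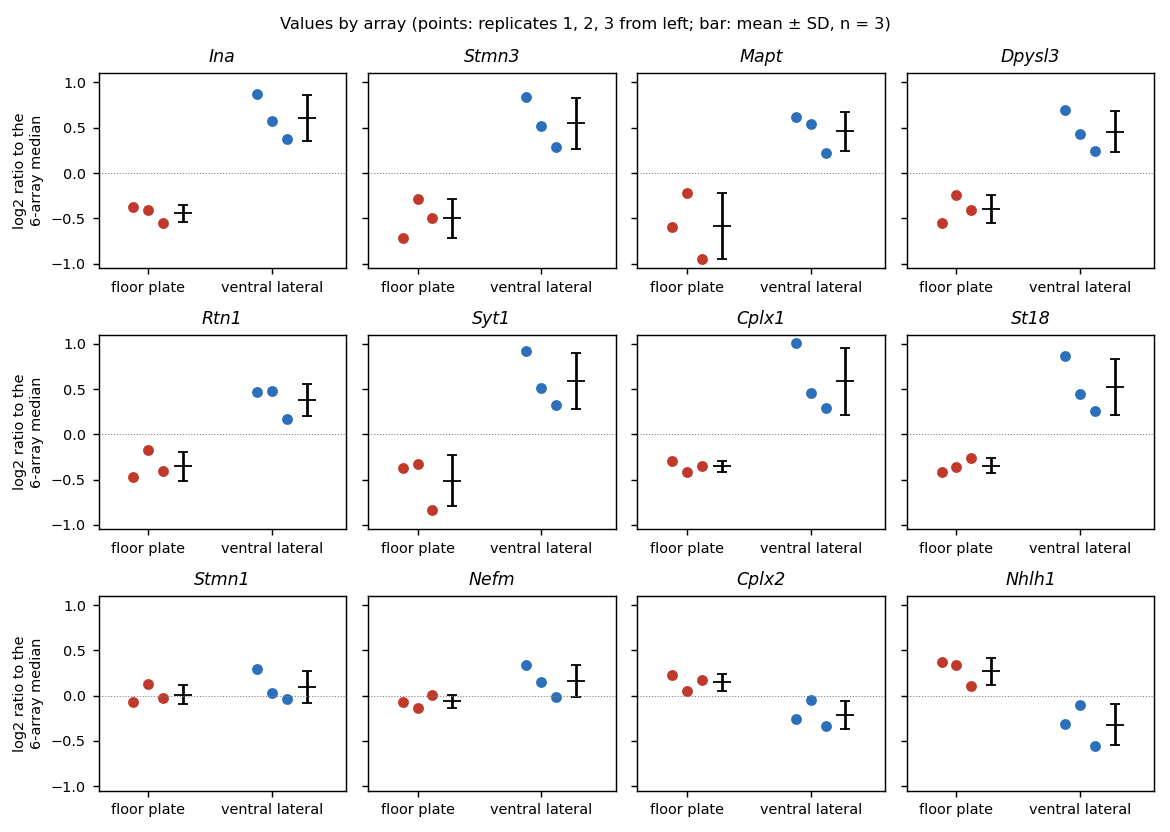
Log2 ratio to the median of the 6 arrays (y axis) for the most variable probe set of 12 genes in floor plate (red, left) and ventral lateral samples (blue, right), with replicates 1 to 3 as points and mean ± SD (n = 3) as bars. In the 8 genes of the upper rows, from Ina to St18, the groups do not overlap, with floor plate lower. Centring on the median then puts them on opposite sides of 0. Stmn1 and Nefm overlap. Cplx2 and Nhlh1 run the other way without passing the threshold.

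Probe sets of a gene did not always point the same way, and the share that did among all genes was not counted. Of the 44 genes 32 had more than 1 probe set: 17 had only negative differences, 1 only positive ones (Cplx2) and 14 both. On the most variable probe set, 38 of 44 genes were negative (86.4%, against 51.4% of all 18193 genes), with a median of -0.58 (all genes: -0.0079). The medians by class were -0.44 for microtubule, -0.46 for filament, -0.42 for growth cone and cytosolic, -0.37 for early factor and -0.32 for vesicle probe sets, and differences between classes were not tested.

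Calls among other genes of the same machinery went both ways, but more of their differences were negative than positive. Of 26 further vesicle and release genes 7 were lower and 3 higher in floor plate, against 3.25% and 4.58% of all genes. Of their 51 probe sets 33 had a negative difference, where 50.8% of all probe sets did. Floor plate values were all lower for 17 and all higher for 7, where 11.0% and 11.5% of all probe sets were. The secreted granule protein gene Chgb was higher, at 0.66, 0.79 and 0.85 in floor plate, against -0.66, -1.08 and -1.18 in ventral lateral samples (log2 difference 1.74, SE 0.15, adjusted p = 0.000844). So was the vesicle glycoprotein gene Sv2b (log2 difference 2.75, SE 0.18, adjusted p = 0.000327), while Sncg, a synuclein gene, was lower (log2 difference -1.59, SE 0.12, adjusted p = 0.00039). Of 22 further cytoskeleton genes 3 were lower and 1 higher, against the same shares of all genes. Of their 62 probe sets 46 had a negative difference. Floor plate values were all lower for 22 of these probe sets and all higher for 1. The microtubule-stabilising gene Map6 was higher (log2 difference 0.91, SE 0.13, adjusted p = 0.009), and Map7d2 (log2 difference -0.97, SE 0.18, adjusted p = 0.0266) and the axonal kinesin gene Kif5a (log2 difference -0.86, SE 0.15, adjusted p = 0.0177) were lower. Map7d2 passed only without floor plate replicate 1 (adjusted p of 0.0627 to 0.103 in the other 5 fits), and Kif5a was lost without floor plate replicate 1 (0.0594) or 3 (0.0509) or ventral lateral replicate 1 (0.0646) or 2 (0.0562).

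Of 11 neuronal RNA-binding genes 2 were lower and 0 higher, where 3.25% of all genes were lower and 4.58% higher. Elavl2, an early neuronal Hu protein gene, was lower on 4 probe sets, the most variable at -0.87, -0.39 and -0.79 in floor plate, against 0.54, 0.39 and 0.40 in ventral lateral samples (log2 difference -1.13, SE 0.14, adjusted p = 0.00435). Celf5 was lower too (log2 difference -1.11, SE 0.17, adjusted p = 0.0109), and missed the threshold without floor plate replicate 1 (0.0538).

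The genes of a proneural and neurogenic list went both ways, 2 higher and 2 lower of 17, where 4.58% and 3.25% of all genes were. The 2 lower ones were not genes of the Neurog or Neurod families. Neurog2, which encodes a proneural factor, was higher in floor plate, at 0.43, 0.65 and 0.41 in floor plate, against -0.88, -0.41 and -1.35 in ventral lateral samples (log2 difference 1.38, SE 0.22, adjusted p = 0.0126). It missed the threshold with either floor plate replicate 1 (adjusted p = 0.0541) or ventral lateral replicate 1 (0.0530) left out. Cbfa2t3, a corepressor gene of neurogenesis, was lower (log2 difference -1.75, SE 0.17, adjusted p = 0.00172), as was Gadd45g (log2 difference -0.89, SE 0.14, adjusted p = 0.0126), which was lost without floor plate replicate 1 (0.0577) and at 0.05 without floor plate replicate 3.

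Progenitor genes had 3 higher and 3 lower of 14 and a median difference of 0.03 over their probe sets. Proliferation genes had 0 higher and 1 lower of 11 and a median of 0.09. Of all genes 4.58% were higher and 3.25% lower, and 7.83% were called in either direction. The count for proliferation genes is not read as a result about them. The lower progenitor genes included the patterned factors Pax6 (-3.92) and Sox1 (-2.83), and Slc1a3, a glutamate transporter of radial glia, was higher (2.14). The lower proliferation gene was Ccnd1, encoding cyclin D1 (log2 difference -0.85, SE 0.15, adjusted p = 0.0171), which was lost without floor plate replicate 1 (0.0524), 2 (0.0569) or 3 (0.0541).

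Genes of neuron subtypes went both ways. Of 7 dopaminergic neuron genes 2 were higher and 1 lower, where 4.58% and 3.25% of all genes were. Th, the rate-limiting enzyme of dopamine synthesis, was higher, at 1.37, 1.71 and 1.54 in floor plate, against -2.64, -1.37 and -2.08 in ventral lateral samples (log2 difference 3.57, SE 0.29, adjusted p = 0.00064). So was the factor gene Nr4a2 (log2 difference 1.90, SE 0.33, adjusted p = 0.0181), which missed the threshold with either floor plate replicate 3 (0.0529) or ventral lateral replicate 1 (0.0559) left out. Ddc, which encodes the decarboxylase that follows Th, was lower (log2 difference -0.63, SE 0.13, adjusted p = 0.0405), with its other probe set at -0.24, and passed in the fits without single arrays only without ventral lateral replicate 2 (0.0341, and 0.0798 to 0.131 in the other 5 fits). The vesicular and plasma membrane transporter genes Slc18a2 and Slc6a3 did not pass, with differences of -0.89 (adjusted p = 0.0627) and -0.34 (0.158) and all floor plate values below the ventral lateral ones. The factor genes En1 and Pitx3 did not pass either. They differed by 1.67 (adjusted p = 0.245) and 0.40 (0.158), with all floor plate values above the ventral lateral ones. Of 7 oculomotor and red nucleus genes 1 was lower and 0 were higher, against the same shares of all genes. The lower one was the red nucleus factor gene Pou4f1 (log2 difference -2.27, SE 0.16, adjusted p = 0.000373). The oculomotor factor genes Phox2a and Isl1 did not pass, with differences of 1.92 (adjusted p = 0.0838) and 1.43 (0.279, and 0.181 on the other probe set), and all floor plate values above the ventral lateral ones. Markers of other cells that the pieces could hold gave 2 calls in all, where 7.83% of all genes were called in either direction. The count is not read as a result about these cells. Of 5 neural crest and ganglion genes and of 7 blood genes 0 passed. Of 9 mesenchyme genes 1 was higher, namely Twist1 (2.11), and of 7 endothelium genes 1 was lower, namely Cldn5 (-0.68), lost without floor plate replicate 1 (0.0849) or 3 (0.0807) or ventral lateral replicate 1 (0.0724) or 3 (0.0559). The mean over the mesenchyme probe sets was -0.38, 0.32 and -0.07 in floor plate replicates 1, 2 and 3. In ventral lateral replicates 1, 2 and 3 it was -0.27, 0.27 and 0.05, in the same order by number. The endothelium mean ran from -0.22 to 0.09 over floor plate replicates and from 0.0040 to 0.13 over ventral lateral replicates. The part of these cells in the result was not tested.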

How the data were processed

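Total RNA of 6 dissected samples, 3 of midbrain floor plate and 3 of ventral lateral midbrain, was amplified and hybridised to Affymetrix mouse arrays, per the labels. The submitters' processing notes name RMA; its version was not given in sources used here. Deposited values were read as log2. They are ratios to a centre, since each of 45101 probe sets had a 6-array median of 0 within 5e-07. The centring step, log base and direction are not stated, so no signal level and no filter on dim probe sets was available. Probe sets were named through GEO's platform annotation: 34945 had 1 gene symbol, 932 several and 9160 none, besides 64 controls, which were left out.

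For all 45037 probe sets, floor plate minus ventral lateral was estimated by limma (version 3.58.1, R version 4.3.3, lmFit then eBayes). P-values were adjusted by Benjamini-Hochberg over these probe sets, with a threshold of 0.05. A gene counts as lower or higher if at least 1 probe set passes. Members, role classes and other lists were chosen with earlier results of these data known. Each of the 44 genes is given by its most variable probe set over all 6 arrays, which can favour a probe set that differs between the regions, with the values or range of its other probe sets. Genes of the other lists are given mostly by that probe set alone. Values by sample are given for genes with a probe set past the threshold and for the extremes of each class, and up to 3 genes are named from each other list. Values by sample of Nhlh1, Nhlh2, Cplx2, Tubb3 and Dcx were added after they had been seen, as were Slc18a2, Slc6a3, En1, Pitx3, Phox2a and Isl1 from the other lists. The fit was tested on simulated data. Alternatives were quantile normalization, array centring, leaving out probe sets that may cross-hybridise, robust eBayes, array weights, other thresholds, gene-level fits, the replicate number as a block and leaving out each sample. Promoters came from RefSeq (GRCm38.p6). Motif searches and plots were made with Python 3.11.15, with matplotlib 3.10.9 for drawing and pandas 2.3.3 for tables.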

Additional observations from a re-analysis of the deposited data

How the results depend on the processing

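Against 23 lower probe sets (16 genes), 29 were counted after quantile normalization, 22 after array centring, 21 with robust eBayes, 24 with array weights and 18 without probe sets that may cross-hybridise, with 0 higher in each. Of all probe sets 1.9% to 2.14% were lower in these fits. At an adjusted p under 0.01 there were 3 lower probe sets of the listed genes (2 genes). At 0.1 there were 39, with 1 higher probe set (1 gene), Nhlh1. The shares of all probe sets at these thresholds were not counted. Leaving out single samples gave 6 to 19 lower probe sets from 4 to 13 genes, and 0 higher ones, where 1.13% to 1.65% of all probe sets were called lower. These fits have fewer samples. Same-numbered samples deviated from their group means with correlations of 0.0096, 0.12 and 0.11, against -0.15 to 0.03 for samples of different number. The labels do not say whether the numbers mark pairs, so the main fit left them out, and whether they do was not tested. With the replicate number as a block there were 21 lower probe sets (13 genes) and 1 higher (1 gene), Nhlh1 (adjusted p = 0.0448). In that fit 1.87% of all probe sets were lower. Under the block 11 of the 16 genes were still lower, Stmn2, Nefl, Crmp1, Stx1a and Syt11 were not, and Nefh and Rab3a were added. Gene-level fits gave 16 lower genes both on the mean of the probe sets and on the most variable one. Of all genes 3.58% and 3.31% were lower in these 2 fits. On the mean 1 listed gene was higher (Nhlh1, adjusted p = 0.0350), and 0 were on the most variable. None of the probe sets that passed changed sign in these alternatives. Of those that did not pass, Myt1 (-0.06) ranged from -0.197 to 0.0698 without single samples, turning to 0.0483 without floor plate replicate 3, and was 0.0044 on the mean of its probe sets. Stmn1 (-0.09) ranged from -0.151 to 0.014, with the positive value without ventral lateral replicate 1. Ebf2 (0.14) ranged from -0.0503, without floor plate replicate 1, to 0.406, and was -0.109 on the mean of its probe sets. The cause of these shifts was not tested. Centred values cannot show which probe sets lie near background.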
